A study of Mus musculus with 2 samples.

Results

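The mitochondrial solute carriers of the Slc25 family were taken as every gene symbol made of Slc25a and a number in the table of counts per gene. There were 47 such symbols among the 46095 genes of the table. Testing was limited to genes with at least 10 counts over the pair of libraries, which left 40 of these symbols and 17356 genes in all. Slc25a2, Slc25a21, Slc25a31 and Slc25a41 had between 1 and 9 counts in all, and Slc25a18, Slc25a43 and Slc25a54 had 0 counts in both libraries, which, with 3 counts as the upper limit that a count of 0 allows, leaves room for a level of up to 0.0516 CPM (counts relative to the library total) in control cells and up to 0.0487 CPM in MALAT1-knockdown cells.

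The study asked what loss of the nuclear long noncoding RNA MALAT1 does to fat cell formation. RNA was sequenced from C3H10 cells, a mouse line of fibroblast-like precursors that can be turned into adipocytes. The labels give the strain as C57BL/6, and this was not checked against the origin of the line. One culture condition received an antisense oligonucleotide (ASO) against MALAT1 (C3H10 ASO MALAT1) and the other a negative control oligonucleotide (C3H10 ASO NC). Both received 100 nM of oligonucleotide before confluence, both were then induced with IBMX, dexamethasone, troglitazone and insulin and kept in insulin medium, and the study places the sequenced cells at day 6 of differentiation. The labels name no transgene or deletion for either. The study used 2 oligonucleotides against MALAT1, and which of them was sequenced is not given in the sources used here.

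Each condition is 1 library, so no difference below has a replicate check. The exact binomial test compares these libraries and not the conditions, and every interval is a 95% interval for counting error only. Total depth was 58147539 counts for control cells and 61653549 for MALAT1-knockdown cells. Malat1 itself had 170402 counts in the control and 45396 in the knockdown library, a level of 24.7% of control, so the labels and the targeted RNA go the same way. Genes that mark adipocytes (Adipoq, Fabp4, Plin1, Lpl, Cidec and Pparg) were lower in 6 of 6 cases with a median log2 fold change of -1.27, and their summed counts were 295924 in the control and 129583 in the knockdown library. Markers of fibroblasts and mesenchymal precursors (Col1a1, Col1a2, Pdgfra, Thy1, Vim and Fn1) were higher in 6 of 6 cases with a median of 0.18, and their summed counts were 901997 and 1073902. Ptprc, Adgre1, Epcam and Myog, which define blood, macrophage, epithelial and muscle cells, had 0 counts in both libraries. Of the other markers looked at, Cd68 (macrophages) had 172 and 119 counts, Pecam1 (endothelium) 26 and 25, and the brown adipocyte markers Cidea and Ppargc1a 40 and 4 and 107 and 158, while Ucp1, Cdh5, Krt18, Myh3 and Ckm had at most 4 in either library. In RNA from whole cultures, fewer adipocytes and less carrier RNA per adipocyte cannot be told apart, and the part of these markers in the carrier results was not tested.

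Slc25 proteins sit mostly in the inner mitochondrial membrane, which is closed to nearly all charged metabolites, and pass nucleotides, phosphate, organic acids, amino acids, cofactors and metal ions between matrix and cytosol. Each is built from repeated homologous units, which typically, though not always, carry a signature in which a proline is followed by an acidic and then a basic residue. In adipocytes the family supplies the phosphate and ADP for ATP synthesis, takes fatty acids in as carnitine esters, and exports citrate, from which the cytosol makes acetyl-CoA for new fatty acids.

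The signature can be read in the coding sequences of the family. In frame on the coding strand, the search was for a proline codon, any codon, a codon for aspartate or glutamate, any 2 codons, and then a codon for lysine or arginine. At least 1 copy was present in 44 of the 47 members (93.6%), against 26.6% of 21605 protein-coding genes, and at least 3 copies were present in 27 members (57.4%), against 2.45%. Slc25a46, Slc25a51 and Slc25a53 had no match. The copies below come from the GENCODE M21 transcripts (GRCm38), with the proline, acidic and basic codons in capitals, and all lie in coding exons. The paired ADP/ATP carriers Slc25a4 and Slc25a5 are shown with 3 copies each, at the same codons of coding sequences of equal length, and members that changed by 1.5-fold or more with their first copy.
Slc25a4 copy 1 (chr8:46210824-46210841, minus strand, exon 1): CCGatcGAGagggtcAAA
Slc25a5 copy 1 (chrX:36795812-36795829, plus strand, exon 1): CCCatcGAGagggtcAAG
Slc25a4 copy 2 (chr8:46209206-46209223, minus strand, exon 2): CCGctgGACtttgctAGG
Slc25a5 copy 2 (chrX:36797128-36797145, plus strand, exon 2): CCTcttGATtttgccCGT
Slc25a4 copy 3 (chr8:46208432-46208449, minus strand, exon 3): CCGtttGACactgttCGT
Slc25a5 copy 3 (chrX:36797825-36797842, plus strand, exon 3): CCTtttGACacggttCGC
Slc25a10 copy 1 (chr11:120492059-120492076, plus strand, exon 1): CCGctgGACctgctcAAG
Slc25a1 copy 1 (chr16:17927597-17927614, minus strand, exon 2): CCGaccGAAtacgtgAAG
Slc25a13 copy 1 (chr6:6109299-6109316, minus strand, exon 11): CCTatcGATcttgtaAAG
Slc25a24 copy 1 (chr3:109156976-109156993, plus strand, exon 5): CCTttgGATcgcctcAAG
Slc25a26 copy 1 (chr6:94507556-94507573, plus strand, exon 2): CCTctgGACaccattAAG
Slc25a33 copy 1 (chr4:149762495-149762512, minus strand, exon 2): CCActaGAAgtcattAAG
Slc25a34 copy 1 (chr4:141623562-141623579, minus strand, exon 1): CCCctgGAAgtggtaAAG
Slc25a48 copy 1 (chr13:56442815-56442832, plus strand, exon 2): CCTctgGACacagtcAAG

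Most carriers stood slightly lower in the knockdown library, and few moved far. The median log2 fold change (knockdown over control, after edgeR's TMM scaling) of the 40 members was -0.22, with 26 members below 0 and 14 above, against a median of -0.00 over all 17356 genes tested. The stricter call asked for a change of 2-fold or more with an adjusted p (Benjamini-Hochberg) under 0.05. By that rule 2 of 40 members (5.0%), Slc25a1 and Slc25a33, were lower, against 4.09% of all genes tested, and 1 member (2.5%), Slc25a48, was higher, against 2.18%. Both shares are near the background. At 1.5-fold or more, 6 members (15%) were lower, against 7.27% of all genes, and 3 (7.5%) were higher, against 4.37%. Slc25a1, Slc25a10, Slc25a26, Slc25a33 and Slc25a34 were among the members that fell at this lower threshold, and those that rose were Slc25a13, Slc25a24 and Slc25a48.

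**Figure D1:**
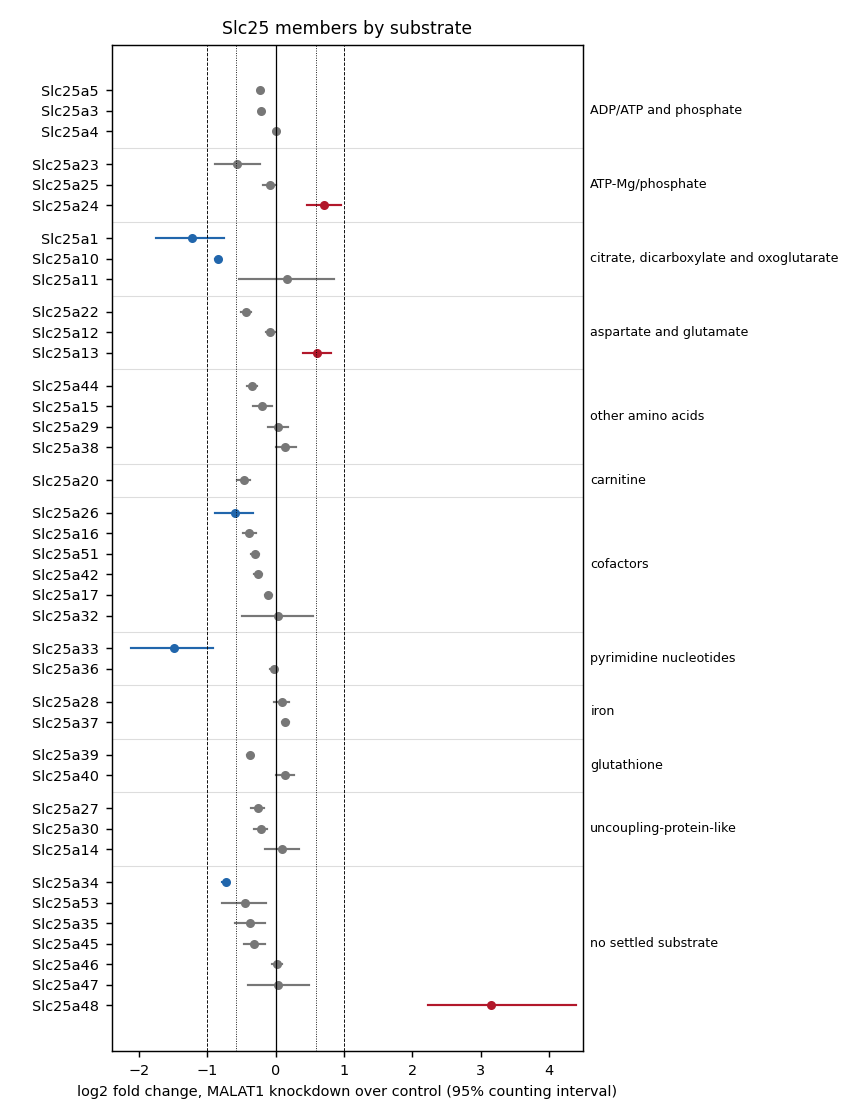
Log2 fold change of 39 tested Slc25 members (MALAT1 knockdown over control, 1 library each) with its 95% counting interval as a bar, grouped by substrate. Blue and red mark members lower and higher by 1.5-fold or more at an adjusted p under 0.05, dotted lines stand at 1.5-fold and dashed lines at 2-fold. Slc25a48 at 3.15 lies far to the right and most other members cluster near the median of -0.22.

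The shift was clearest among the well-counted carriers. Of the 22 members with a mean of 1000 counts or more, 18 were below 0 and the median was -0.25. Among all 8251 genes with such counts, 46.9% were below 0, the median was 0.01, and the 5th and 95th percentiles were -0.43 and 0.35. 5 members, Slc25a10, Slc25a20, Slc25a22 and Slc25a34 among them, lay below the 5th percentile and none of the 22 lay above the 95th. For Slc25a20 and Slc25a22 the counting interval reached across that 5th percentile. The 12 members with 100 to 1000 counts had a median of -0.08, with Slc25a13 and Slc25a24 above the 95th percentile of genes with such counts. The 6 members under 100 counts had a median of 0.03 and held the 3 calls at 2-fold, Slc25a1, Slc25a33 and Slc25a48.

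**Figure D2:**
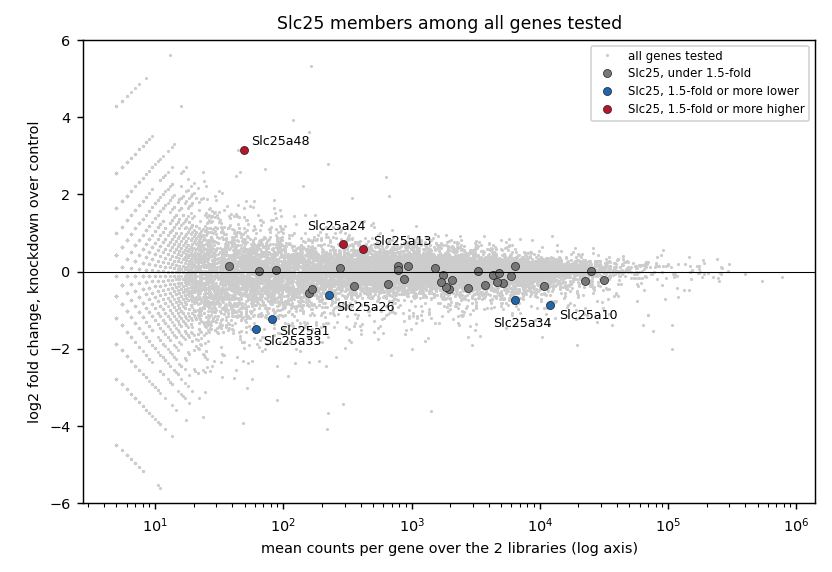
Log2 fold change (knockdown over control) of the 17356 genes tested against their mean counts over both libraries on a log axis, with 39 Slc25 members as large points and those of them past 1.5-fold named. The spread of all genes narrows to the right, where most Slc25 members sit just under 0.

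All Slc25 symbols together took 176305 counts in the control library (0.303% of the library) and 160709 in the knockdown library (0.261%), a log2 fold change of -0.24 in the scaled sum. The carriers Slc25a3, Slc25a4 and Slc25a5, made up much of this total. Expressed per length, as scaled CPM per kb of annotated exon, they held 55.5% of the level of the tested family in the control and 59.3% in the knockdown library. Their summed counts had a log2 fold change of -0.15 and those of all other members -0.32. By the same measure per length the control library was led by Slc25a5 at 245.6, Slc25a4 at 178.4 and Slc25a3 at 102.7 CPM per kb, followed by Slc25a10 at 75.2, Slc25a39 at 73.7 and Slc25a34 at 50.1. In the knockdown library Slc25a10 stood at 41.7 CPM per kb and Slc25a39 at 56.5, so their order was exchanged. The lowest tested level in the control was that of Slc25a48 at 0.0462 CPM per kb.

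The carriers of phosphate and adenine nucleotides changed little. Slc25a3, which brings in phosphate for ATP synthesis, had 32896 counts in the control and 30314 in the knockdown library, a log2 fold change of -0.22 (-0.25 to -0.20). Slc25a5, the ADP/ATP carrier typical of growing cells, had 23331 and 21373 counts, at -0.23 (-0.26 to -0.21). Slc25a4, the ADP/ATP carrier of heart and muscle, had 24223 and 26218 counts, at 0.01 (-0.02 to 0.03). None of the 3 passed 1.5-fold, and the fourth carrier of the group, the germline-type Slc25a31, had 0 and 4 counts. The change of Slc25a4 relative to Slc25a5, in which library scaling cancels, was 0.24 (0.20 to 0.28) on the log2 scale. The coding sequences of this pair were identical at 77.4% of aligned bases with a longest shared run of 20 bases, and how reads matching several places were counted is not given in the sources used here. Slc25a5-ps, a pseudogene with its own row, had 0 counts in both libraries.

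The calcium-regulated carriers that exchange ATP-Mg for phosphate did not move alike. Slc25a24 rose from 211 to 372 counts, or by 0.71 (0.46 to 0.96) on the log2 scale. Slc25a23 had 182 and 133 counts at -0.56 (-0.89 to -0.23), and Slc25a25 had 1760 and 1786 counts at -0.09 (-0.18 to 0.01). Relative to Slc25a24, Slc25a23 was lower in the knockdown library by a log2 difference of -1.27 (-1.67 to -0.87), and Slc25a24 relative to Slc25a25 was higher by 0.80 (0.54 to 1.06). Slc25a25 had the most counts of the 3 in both libraries, and the fourth relative, Slc25a41, had 3 and 2 counts.

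The carriers of di- and tricarboxylates held the largest fall of any abundant member. Slc25a10, the dicarboxylate carrier that exchanges malate and succinate for phosphate, fell from 14992 to 8959 counts, to 55.5% of control, with a log2 fold change of -0.85 (-0.89 to -0.81). Slc25a1, the citrate carrier that feeds cytosolic acetyl-CoA, fell from 112 to 51 counts, at -1.23 (-1.75 to -0.75). Slc25a11, which exchanges oxoglutarate for malate, had 34 and 41 counts at 0.16 (-0.53 to 0.86), an interval too wide to tell a rise from a fall. Slc25a21, the carrier of oxoadipate, had 1 and 4 counts.

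The low counts of Slc25a1 and Slc25a11 stood among neighbours that were also low. The 10 protein-coding genes nearest to Slc25a1 on chromosome 16, 5 on either side, had a median of 0 counts in both libraries, and the most counted of them, Dgcr2, had 53 counts in the control and 395 in the knockdown library. Around Slc25a11 on chromosome 11 the median of the neighbours was 36 and 29 counts. Pfn1, which encodes the widely expressed actin-binding protein profilin, had 181 and 208 counts there, and Eno3 had 532 and 53. Rnf167, on the opposite strand and overlapping Slc25a11, had 50 and 18 counts. The neighbours of Slc25a10 had medians of 2090.5 and 2280.5 counts, so low counts were not shared by that stretch. Low medians were not particular to Slc25a1 and Slc25a11, however. They were 27 and 30 counts around Slc25a24 and 2 and 2.5 around Slc25a48. The highest, 3732 and 4152, were those around Slc25a45. A gene not expressed in these cells also has 0 counts, so these medians cannot tell a low stretch from unexpressed neighbours. At 2-fold, 1 of the 3 tested neighbours of Slc25a1 was higher and 0 were lower. Of the 7 tested around Slc25a11, 2 were lower and 1 higher, against 4.09% lower and 2.18% higher among all genes tested. Why these counts were low was not tested, and the levels of Slc25a1 and Slc25a11 are given here as the table holds them.

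**Figure D3:**
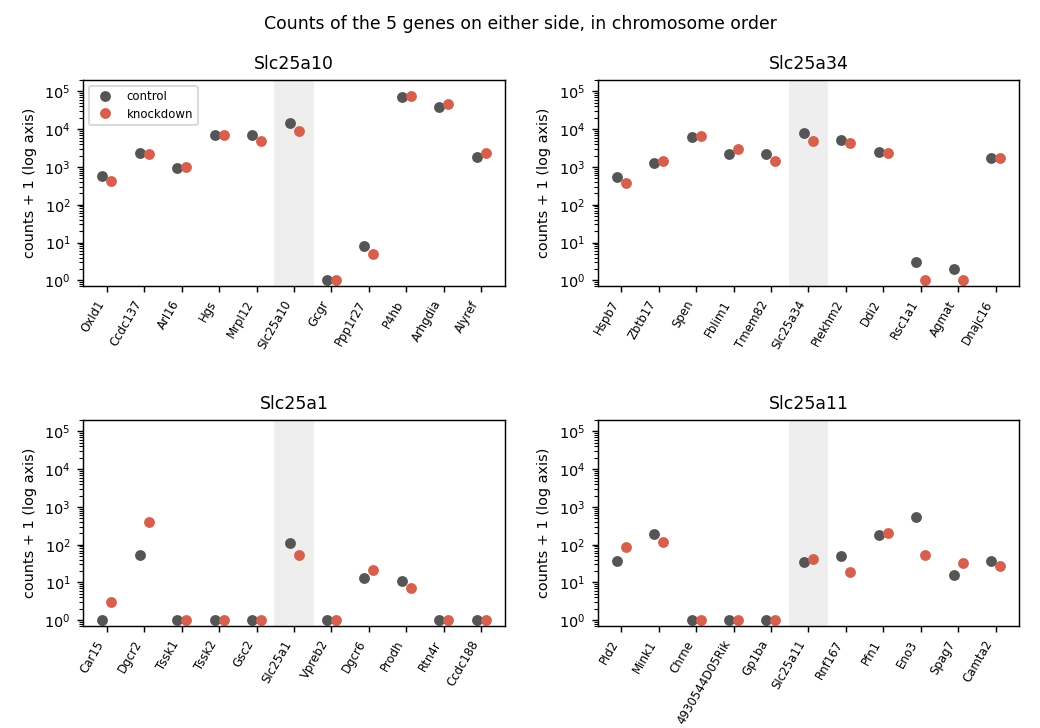
Counts plus 1 on a log axis in the control (grey) and knockdown (red) library for Slc25a10, Slc25a34, Slc25a1 and Slc25a11 (shaded) and the 5 protein-coding genes on either side in chromosome order. Most genes around Slc25a1 sit at 0 counts, drawn at 1, whereas those around Slc25a10 and Slc25a34 are mostly well counted.

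Among the carriers of aspartate and glutamate, the 2 forms of the aspartate/glutamate exchanger of the malate-aspartate shuttle came closer in level. Slc25a12 had 4303 and 4398 counts at -0.08 (-0.14 to -0.01), whereas Slc25a13, the form best known from liver, rose from 316 to 516 counts at 0.60 (0.40 to 0.81). The ratio of their counts went from 13.6 to 8.52, and the log2 change of Slc25a12 relative to Slc25a13 was -0.68 (-0.89 to -0.47). Because Slc25a12 had most of the counts, the sum of both changed by -0.02. Slc25a22, which takes up glutamate with a proton, had 3060 and 2437 counts at -0.43 (-0.51 to -0.36), under the 1.5-fold threshold. It lay only just below the 5th percentile of well-counted genes, which is also -0.43 when rounded and lies inside its interval. Its close relative Slc25a18 had 0 counts in both libraries, so that pair could not be compared.

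The carriers of other amino acids stayed within 1.5-fold. Slc25a44, which takes up branched-chain amino acids, had 4050 and 3419 counts at -0.35 (-0.42 to -0.28). Slc25a15, the ornithine carrier, Slc25a29, a carrier of basic amino acids, and Slc25a38, the glycine carrier that serves haem synthesis, ranged from -0.20 to 0.14. Slc25a20, which brings acylcarnitines in for fatty acid oxidation, had 2215 and 1728 counts at -0.46 (-0.56 to -0.37). This value was also below the 5th percentile of well-counted genes, which lies inside the interval.

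Of the 7 cofactor carriers, 6 had log2 fold changes below 0 and 2 fell by 1.5-fold or more, with a group median of -0.30. Slc25a26, which imports S-adenosylmethionine, fell from 265 to 188 counts at -0.60 (-0.88 to -0.33), just past the threshold of 0.58. Slc25a26 overlaps Lrig1 on the opposite strand, which had 8592 and 6455 counts, and whether counting used strand is not given in the sources used here. The value of Slc25a26 was -0.58 under scaling by library totals, where it no longer passed. Of the carriers linked to coenzyme A, Slc25a42 had 4880 and 4388 counts at -0.26 (-0.32 to -0.20) and Slc25a16 had 2033 and 1673 at -0.39 (-0.48 to -0.29). The change of Slc25a16 relative to Slc25a42 was -0.13 (-0.24 to -0.02), a small difference whose interval lay below 0. Slc25a17, a carrier of the peroxisome, had 5998 and 5994 counts at -0.11 (-0.16 to -0.06). Slc25a51, the NAD carrier, had 5485 and 4788 at -0.30 (-0.36 to -0.25), and Slc25a32, linked to folate and FAD, had 62 and 68 counts at 0.03.

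The pyrimidine nucleotide carriers differed from each other. Slc25a33 fell from 89 to 34 counts at -1.48 (-2.11 to -0.91), the lowest value of any member. Slc25a36 had 4698 and 4944 counts at -0.03 (-0.09 to 0.02). The change of Slc25a33 relative to Slc25a36 was -1.46 (-2.03 to -0.89), and since Slc25a36 held nearly all counts of the pair, their sum changed by -0.05.

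The iron carriers were the group with every tested member above 0. Slc25a37, the mitoferrin of red cell precursors, had 5833 and 6900 counts at 0.14 (0.09 to 0.19), and Slc25a28, the mitoferrin of other tissues, had 1415 and 1618 at 0.09 (-0.02 to 0.19). Neither passed 1.5-fold, and the change of Slc25a28 relative to Slc25a37 was -0.05 (-0.16 to 0.07).

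The glutathione carriers and the relatives of the uncoupling proteins also stayed under 1.5-fold. Slc25a39 had 11716 and 9679 counts at -0.38 (-0.42 to -0.34) and Slc25a40 had 866 and 1025 at 0.14 (0.00 to 0.27). Relative to Slc25a40, Slc25a39 was lower in the knockdown library by -0.52 (-0.65 to -0.38), and the ratio of their counts went from 13.5 to 9.44. Slc25a30 had 2139 and 1978 counts at -0.22 (-0.31 to -0.13) and Slc25a14 had 256 and 293 at 0.09 (-0.16 to 0.34). Their difference, Slc25a14 relative to Slc25a30, was 0.31 (0.05 to 0.57), and Slc25a27 stood at -0.26.

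**Figure D4:**
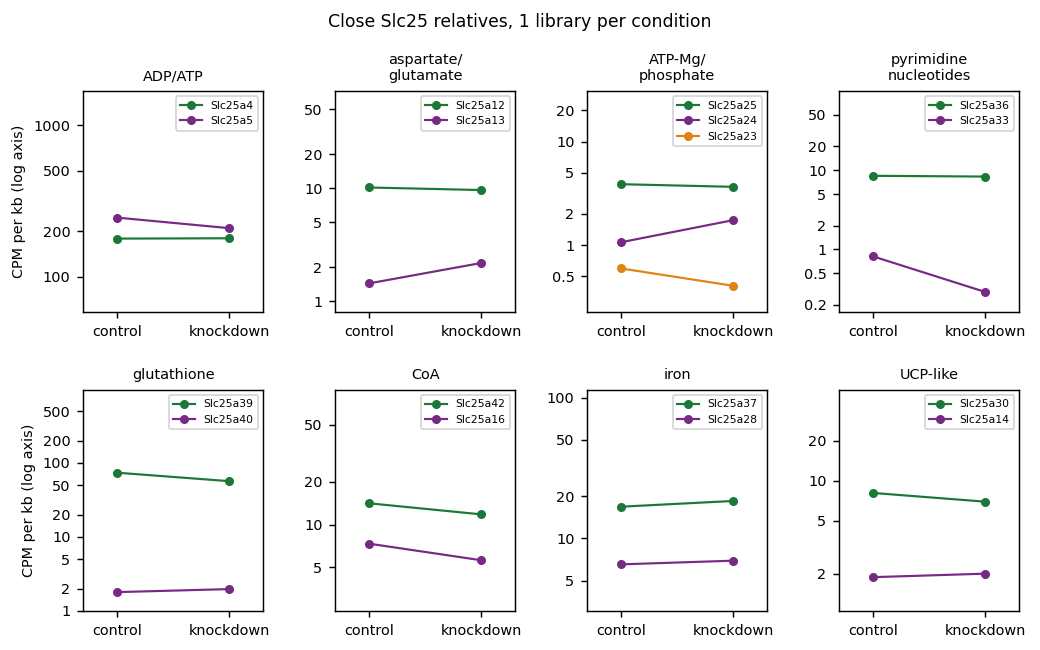
Scaled CPM per kb of exon on a log axis in the control and knockdown library for close Slc25 relatives, 1 point per library, with a different axis range in each panel. Lines run nearly parallel for the CoA and iron carriers and move apart for Slc25a33 and Slc25a36 and for Slc25a23 and Slc25a24, and come closer together for Slc25a12 and Slc25a13.

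Among the members that the grouping used here left without a settled substrate, 1 fell and 1 rose by 1.5-fold or more. Slc25a34 fell from 7724 to 5009 counts at -0.73 (-0.78 to -0.68). Slc25a48 rose from 9 to 90 counts at 3.15 (2.23 to 4.39), the highest value of the family, from a control count under 10. Slc25a46, which lies on the outer membrane and takes part in mitochondrial shape, had 3133 and 3419 counts at 0.02 (-0.05 to 0.09). Slc25a35, Slc25a45, Slc25a47 and Slc25a53 ranged from -0.45 to 0.04 and none passed 1.5-fold. Slc25a45 starts 75.1 kb from the end of Malat1 on chromosome 19 (GRCm38) and had 701 and 610 counts at -0.31 (-0.47 to -0.15).

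Genes that work beside the carriers are given from lists of other transporters, import factors and enzymes. The enzymes on either side of the citrate carrier (Cs, Acly, Mdh1, Mdh2 and Me1 among them) were below 0 in 6 of 6 cases with a median of -0.58. Among all genes tested, 50.4% were below 0. Of these enzymes 3, Acly and Me1 included, fell by 1.5-fold or more, against 7.27% of all genes tested. Acly, which splits exported citrate, had 25554 and 18030 counts at -0.61 (-0.64 to -0.58). Of the carnitine enzymes around Slc25a20, Crat at -0.93 and Cpt2 at -0.68 fell, whereas Cpt1a, which makes acylcarnitines at the outer membrane, had 3494 and 5191 counts at 0.46 (0.40 to 0.53). Cpt1b had 32 and 20 counts. For the shuttles of reducing equivalents, the cytosolic Gpd1 of the glycerol phosphate shuttle fell at -1.91 while the mitochondrial Gpd2 stood at -0.09, and the malate-aspartate enzymes Got1 and Got2 stood at -0.03 and 0.17.

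The uncoupling proteins, carriers of the same family under other symbols, were scarce. Ucp2 fell from 44 to 5 counts at -3.12 (-4.94 to -1.91) and Ucp3 from 78 to 21 counts at -1.97 (-2.77 to -1.29). Ucp1, the uncoupler of brown fat, had 1 count in each library. The pyruvate carrier subunits Mpc1 and Mpc2 stood at -0.32 and -0.53. The 9 tested factors that import carriers, such as Timm22 and Tomm20, had a median of -0.16. Among them 9 of 9 were below 0, against 50.4% of all genes tested. For Tomm70a at -0.01 (-0.06 to 0.05) and Timm10b at -0.06 (-0.18 to 0.05) the counting interval reached across 0. None of the 9 passed 1.5-fold. Nor did any of the distant carriers Mtch1 and Mtch2, the Vdac channels of the outer membrane, the sideroflexins or the calcium uniporter genes, whose medians were -0.06, -0.09, -0.18 and 0.03.

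**Figure D5:**
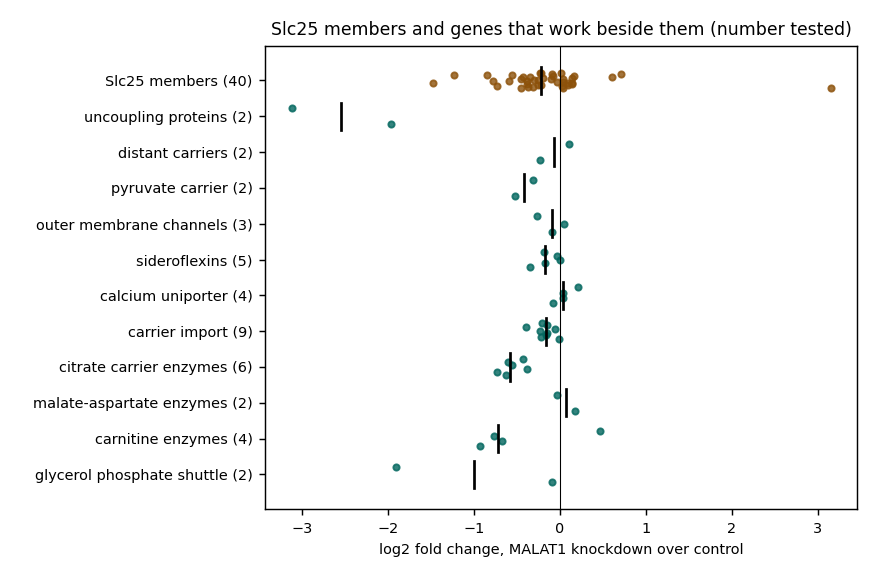
Log2 fold change (knockdown over control) of the Slc25 members and of genes that work beside them, 1 point per tested gene, with a black bar at each median and the number tested in brackets. The enzymes beside the citrate carrier lie wholly below 0 at a median of -0.58. So do the uncoupling proteins, the pyruvate carrier, the sideroflexins, the carrier import factors and the glycerol phosphate shuttle. The Slc25 members have a median of -0.22, and Cpt1a stands apart from the other carnitine enzymes at 0.46.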

How the data were processed

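Total RNA depleted of rRNA was made into libraries with a directional kit and sequenced, per the labels. The authors deposited whole-number counts of reads per gene symbol, without normalization. The submitters' processing notes name HISAT2 and GRCm38. The counting tool, strand setting and treatment of multiply mapped reads are not given in the sources used here.

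Library sizes were scaled by TMM in edgeR 4.0.16 (R 4.3.3). For each of the 17356 genes with 10 or more summed counts, the exact binomial probability of its split between the scaled libraries was computed (two-sided, scipy 1.17.1), with Benjamini-Hochberg adjustment over all of them. Log2 fold changes used a prior count of 0.5, and intervals were Clopper-Pearson, except for differences between relatives (normal approximation on log counts). Quasi-likelihood tests need replicates and could not be fitted. The two-sided p was 2 times the smaller tail. This definition was preferred after the counts of calls under another had been seen: summing all outcomes no more likely than the observed one called 736 genes lower and 426 higher at 2-fold, in place of 710 and 378, and changed the call of no member.

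All 47 symbols matched GENCODE M21, which gave positions, exon lengths and coding sequences (aligned with Biopython 1.88). The values of 1 member and 1 enzyme are not reported here, though both enter the counts and medians. Counts and intervals are given for members past 1.5-fold, the 10 most counted and close relatives. The members and lists were chosen with earlier results of these data known. The signature search, levels per length and the neighbours of Slc25a11 and Slc25a45 and of members past 1.5-fold only were added after values were seen. A search of member promoters for a few transcription factor motifs was also looked at and is not reported. Alternatives were other scalings (DESeq2 1.42.0 size factors among them), filters, prior counts, thinned counts and preset biological variation.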

Additional observations from a re-analysis of the deposited data

How the results depend on the processing

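The main limit is the single library per condition: what biological variation would do was tried only by presetting it. With edgeR's exact test at a preset biological coefficient of variation of 0.2, the members called at 2-fold lower went from 2 to 0, those at 1.5-fold lower from 6 to 0, and those at 1.5-fold higher from 3 to 1, which was Slc25a48. At 0.4 all of these counts and that of 2-fold higher members were 0. At 0.1, Slc25a13 and Slc25a26 were lost at 1.5-fold. Slc25a26 was also lost with library totals (-0.58) and with counts divided by 4 (-0.59). The calls at 2-fold rest on few counts: with only genes of a mean of 100 or more counts, an alternative chosen after seeing the data, 0 members were 2-fold lower and 0 higher, and with 10 or more counts in each library Slc25a48 was not tested, leaving 0 higher. These follow from the genes no longer tested. The median of the members ran from -0.24 to -0.20 over the scalings, filters and prior counts tried, while that of all genes tested ran from -0.0136 to 0.0190. No called member changed sign under any alternative run. No paired analysis was possible because each condition has 1 library and the labels carry no replicate numbers.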

Other observations

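Some genes lying directly beside a carrier that fell by 1.5-fold or more are given here as values, chosen after they were seen. Mrpl12, a protein of the mitochondrial ribosome next to Slc25a10, had 6872 counts in the control and 4831 in the knockdown library, a log2 fold change of -0.61. Tmem82, next to Slc25a34, had 2216 and 1458 counts at -0.71. On the other side of these carriers, Gcgr (beside Slc25a10) had 0 counts in both libraries and Plekhm2 (beside Slc25a34) had a log2 fold change of -0.34. Around Slc25a33, Tmem201 and Spsb1 stood at -0.18 and -0.04.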
